A study of Mus musculus with 4 samples.

Results

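The cytosolic ribosomal protein genes are described here in mouse spleen natural killer (NK) cells with and without Tcf7. They were taken as the protein-coding genes named Rpl or Rps with a number and an optional a or x, together with Rplp0, Rplp1, Rplp2 and Rpsa, and without pseudogenes, the Rps6k kinases and the Mrp genes of mitochondria. The rule found 76 genes among the 26611 rows of the deposited count table, 30 for the small subunit and 46 for the large one, and it used no measured value. Of these, 75 passed the filter on low counts, as did 12723 genes in all. They lie on 19 chromosomes, with Rpl10, Rpl36a, Rpl39 and Rps4x on the X.

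Tcf7 encodes TCF-1, a transcription factor of the Wnt pathway. The study set 2 wild-type (WT) libraries against 2 Tcf7 knock-out (KO) libraries, each from the spleen of its own C57BL/6 mouse, and all 4 from cells sorted as negative for TCRbeta and positive for NK1.1, NKp46, CD11b and KLRG1, which are mature NK cells. The kind of Tcf7 allele, the age and the sex are not given in the labels. The libraries are numbered 1 and 2 within each genotype, and no label says that a number marks a litter, day or batch.

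The ribosome joins a small subunit, which reads the mRNA, with a large subunit, which forms the peptide bond and lets the new chain out through a tunnel. Each ribosomal protein is needed in about equal number, so its genes are known for being expressed together in all cell types. Their mRNAs begin with a C followed by a run of C and T, the terminal oligopyrimidine (TOP) tract, through which mTOR signalling and the protein Larp1 control their translation. Ribosomal protein mRNAs are short, abundant and the parents of many processed pseudogenes, copies of the mRNA pasted elsewhere in the genome.

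The start sites of 8 genes, 6 with the tract and 2 without it, are shown as the reference has them. A RefSeq table of the GRCm38.p6 build (the patch release of mm10) gave a promoter for 56 of the 76 genes, and each window below runs from 10 bases before to 20 bases from the annotated start onward, on the gene's own strand, with the longest pyrimidine run near the start in capitals. The first 6 are shown because their annotated start base is itself a C followed by at least 4 pyrimidines. Rpl22 and Rpl4 are shown because no such run lies within 5 bases of their annotated start.
Rps15a, chr7:118116128-118116157, minus strand: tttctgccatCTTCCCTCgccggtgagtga
Rpl38, chr11:114668570-114668599, plus strand: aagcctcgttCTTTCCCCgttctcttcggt
Rps6, chr4:86857348-86857377, minus strand: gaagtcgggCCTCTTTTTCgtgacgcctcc
Rps18, chr17:33955646-33955675, minus strand: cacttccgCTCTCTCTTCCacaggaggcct
Rpl15, chr14:18270967-18270996, minus strand: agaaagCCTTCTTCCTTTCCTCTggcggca
Rplp2, chr7:141447641-141447670, plus strand: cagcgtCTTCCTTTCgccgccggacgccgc
Rpl22, chr4:152325716-152325745, plus strand: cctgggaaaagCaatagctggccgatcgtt
Rpl4, chr9:64173377-64173406, plus strand: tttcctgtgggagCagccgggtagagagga
Such a start was annotated for 12 of the 56 genes (21.4%), beside 368 of 17436 other protein-coding genes (2.11%). With the start allowed to lie within 5 bases of the annotated one, 26 of 56 (46.4%) and 3251 of 17436 (18.7%) held the tract. In the promoter, from 250 bases before to 50 bases after the start and on either strand, the Ets-like letters CCGGAAG stood in 22 of 56 genes (39.3%) and in 11.8% of the others. The Tcf/Lef-like letters CTTTGAA or CTTTGAT stood in 0 of 56 and in 7.86% of the others. The YY1-like letters AAGATGGC stood in 4 of 56 (7.14%) and 3.21%, and the E-box CACGTG in 5 of 56 (8.93%) and 7.90%. A match of letters is a description of these windows and not a bound site.

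Total counts were 31860505 and 40175537 in WT libraries 1 and 2 and 28254693 and 37384979 in KO libraries 1 and 2. Tcf7, on chromosome 11, had 2908 and 3106 counts in WT and 328 and 903 counts in KO, a difference that DESeq2 called (adjusted p = 0.0022) and edgeR did not (adjusted p = 1.00). All 10 NK cell markers were detected. Their summed levels were 30722 to 36674 CPM (counts scaled to the TMM-adjusted library total) in WT and 30954 to 38530 in KO. Markers of other cells were unequal among the libraries. The 10 myeloid markers summed to 873 and 625 CPM in WT, against 1693 and 1248 in KO, all 10 reached 1 CPM in some library, and Elane was at 0 in WT library 2. Of the 7 erythroid markers in the table all reached 1 CPM, and their sum was 40.7 and 29.0 CPM in WT, against 206 and 123 in KO. The 8 B cell markers summed to 169 to 243 CPM in WT and 221 to 446 CPM in KO, of which 6 reached 1 CPM. The 10 T cell markers, 4 of which reached 1 CPM, summed to 167 to 224 CPM in WT and 127 to 215 CPM in KO, and none of the 4 platelet markers reached 1 CPM.

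Ribosomal protein genes took 1.95% of all counts in WT library 1, 1.46% in WT library 2, 2.45% in KO library 1 and 1.45% in KO library 2. KO library 1 stood highest and both libraries numbered 2 stood lowest, so the genotypes overlapped. The exact binomial 95% interval for WT library 1 runs from 1.94% to 1.95% and covers counting error only. Small subunit genes held 48.5% and 46.8% of these counts in WT and 50.8% and 47.2% in KO. In bulk RNA, fewer cells of a type and less RNA per cell cannot be told apart.

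Levels per gene are given in the same TMM-scaled CPM and, to compare genes, per kb of the gene length in the table. Over the 75 tested genes, the mean level per kb of the 4 libraries ran from 6.18 for Rpl31, at the tunnel exit of the large subunit, to 2049 for Rpl8, near the site of peptide bond formation, with a median of 139. The range was thus 332-fold, and 10 of the genes held 51.7% of all ribosomal protein counts. Rpl8 (chromosome 15, 76904071 to 76906318) had 1872 and 1503 CPM in WT, against 2227 and 1462 in KO. Other high levels were those of Rplp1, of the large subunit's stalk, with 1413 CPM per kb, and Rps15, of the small subunit, with 1397 CPM per kb. At the low end, Rpl36a had 4.1 and 2.4 CPM in WT, against 5.0 and 2.4 in KO. Rpl39, a small protein of the tunnel wall, had 4 and 1 counts in WT and 3 and 0 counts in KO and was the only one of the 76 left out by the filter. It was at or near the limit that a count of 0 allows, which is 0.0747 to 0.106 CPM without TMM scaling (3 counts per library).

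**Figure D1:**
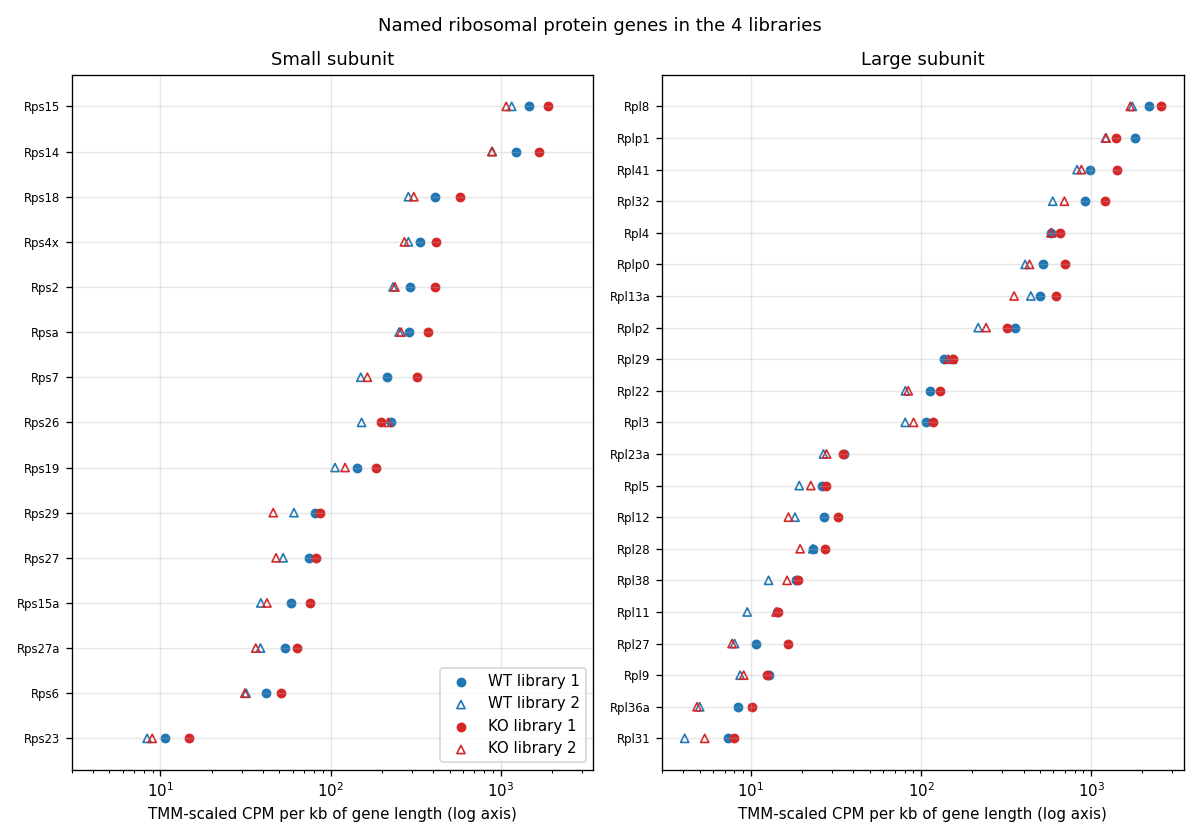
Level of 36 of the named ribosomal protein genes in each library, as TMM-scaled CPM per kb of gene length on a log axis, with the small subunit on the left and the large subunit on the right, ordered by mean level. Filled circles are libraries numbered 1 and open triangles libraries numbered 2. Rpl8 is highest and Rpl31 lowest, and the triangles lie left of the circles for 33 of the 36 genes.

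KO was compared with WT to see which genes differ when Tcf7 is missing. None of the 75 genes was called by edgeR's quasi-likelihood test at an adjusted p under 0.05, and the smallest adjusted p among them was 1.00. That test called 0 of all 12723 genes (0%), with 361 (2.84%) at an unadjusted p under 0.05, and 0 of the 75 were among these. DESeq2 called 71 genes (0.558%), and edgeR with the library number as a block called 221 (1.74%), again with 0 of the 75 in either. The fitted log2 fold changes of 72 of the 75 (96%) were above 0, where 48.2% of all tested genes were, with a median of 0.19 beside -0.01 for all tested genes. With a term for gene length in the fit, 53 of the 75 were above 0, with a median of 0.06. No gene of the 75 had both KO libraries above both WT libraries, which 9.64% of all genes had, or both below, which 11.6% had.

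The libraries behind that median were unequal. Between the libraries numbered 1, KO was above WT for 67 of 75 genes (89.3%, beside 45.9% of all genes), with a median log2 ratio of 0.27. Between the libraries numbered 2, it was above WT for 43 of 75 (57.3%, beside 49.4%), with a median of 0.05. KO library 1 held the highest level of 67 genes and WT library 1 of the other 8. Leaving out KO library 1 turned the median to -0.17 (both WT libraries against KO library 2), and leaving out WT library 2 brought it to 0.02. Small subunit genes had a median of 0.36 between libraries 1 and 0.05 between libraries 2, and large subunit genes 0.22 and 0.05.

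**Figure D2:**
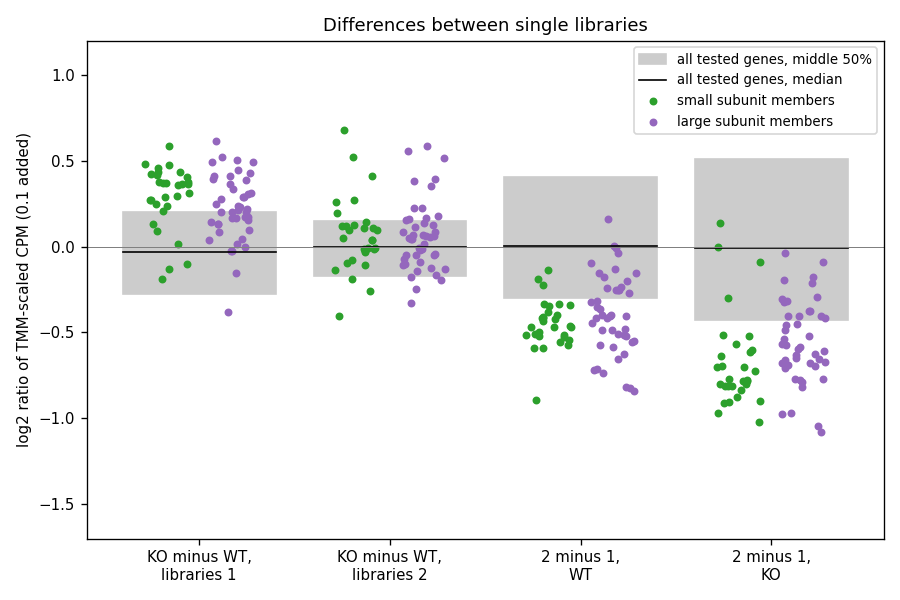
Log2 ratios of TMM-scaled CPM (0.1 added) between pairs of single libraries, 1 point per tested ribosomal protein gene, green for the small and purple for the large subunit; grey boxes give the middle 50% and black lines the median of all 12723 tested genes. The KO minus WT ratios have a median of 0.27 in libraries 1 and 0.05 in libraries 2, and the ratios of library 2 to library 1 have medians of -0.42 in WT and -0.65 in KO.

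The stalk recruits elongation factors, and none of its genes was called between genotypes. Rplp0, the stalk's base, had 711 and 556 CPM in WT, against 956 and 589.7 in KO, a log2 fold change of 0.29 ± 0.32 (SE). Rplp1 had 851 and 567 CPM in WT, against 654 and 572 in KO, at -0.21 ± 0.28, the lowest of the 75. Rplp2 had 156 and 95.5 CPM in WT, against 140.4 and 106 in KO, at -0.03 ± 0.33. In all 3 the genotypes overlapped, and none of the 3 differences exceeded its error.

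The highest fold changes were in genes from several parts of the ribosome. Rps7, a small subunit protein that also binds the p53 regulator Mdm2, had 207 and 145 CPM in WT, against 309.6 and 158 in KO. Its log2 fold change was 0.41 ± 0.41 (SE), and only KO library 1 stood above the WT range. Rpl27 (0.37 ± 0.45), Rps18 of the small subunit's head (0.34 ± 0.39), Rpl41 (0.34 ± 0.31), Rpl32 (0.33 ± 0.38) and Rps23, which sits at the decoding site (0.31 ± 0.37), followed. At the other end came Rplp1, Rps29 (-0.10 ± 0.39) and Rplp2, then Rpl28, Rpl23a and Rpl9, each at 0.01.

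Several ribosomal proteins have known roles beyond the assembled ribosome or in disease. Rpl5 and Rpl11, which restrain Mdm2 when ribosome assembly fails, had 52.8 and 38.8 CPM and 8.5 and 5.6 CPM in WT, and 56.1 and 45.4 CPM and 8.6 and 8.3 CPM in KO. Rps6, the target of the S6 kinases, had 58.0 and 44.4 CPM in WT, against 71.1 and 43.7 in KO. Rpl22, whose loss is known to block T cell development, had 230.2 and 165 CPM in WT, against 265 and 171 in KO. For Rps19 and Rps14, whose loss of a copy causes anaemia in patients, the levels were 90.3 and 66.8 CPM and 737 and 532 CPM in WT, and 116 and 76.5 CPM and 997 and 529 CPM in KO. Rpsa, which is mutated in people born without a spleen, had 535 and 469.9 CPM in WT, against 691 and 483 in KO. Rpl38, known for the translation of Hox mRNAs, had 6.8 and 4.7 CPM in WT, against 7.0 and 6.0 in KO. For each of these genes the KO levels overlapped the WT levels, and fold changes ran from 0.14 (Rpl22) to 0.29 (Rps19) on the log2 scale, none called by edgeR.

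None of the remaining proteins chosen by name was called by edgeR either. Rpl3 and Rpl4, early builders of the large subunit, had fold changes of 0.14 ± 0.26 and 0.08 ± 0.20 (SE) on the log2 scale. Rps2 and Rps4x of the small subunit had 0.30 ± 0.34 and 0.14 ± 0.28. Rpl13a, also known as a brake on translation after interferon, had 0.05 ± 0.33. Rps27a, which is made as a fusion to ubiquitin, had 0.12 ± 0.37, and the zinc-binding Rps27 had 0.03 ± 0.37. With a term for gene length, described with the comparison by library number, Rpl13a was at -0.08, Rps27a at -0.02 and Rps27 at -0.15. Rps2 at 0.18, Rpl3 at 0.08 and Rpl4 at 0.02 stayed above 0 with that term.

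In the libraries numbered 2, most ribosomal protein genes were lower. With genotype in the edgeR model, 48 of the 75 (64%) were lower in the libraries numbered 2 at an adjusted p under 0.05, against 1556 of all 12723 genes (12.2%), and 0 were higher, against 2516 (19.8%), so that 32% of all genes were called in some direction. The 48 ran from -0.91 to -0.39 on the log2 scale, and the median of all 75 was -0.53, beside -0.02 for all tested genes. DESeq2 called 42 of the 75 lower (7.91% of all genes). For 72 of the 75 (96%) both libraries numbered 2 lay below both libraries numbered 1, which held for 33.2% of all genes. The 3 that did not separate were Rpl4, Rpl29 and Rps26.

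Rps15a (chromosome 7, 118104374 to 118116147), of the small subunit, had 301 and 387 CPM in the WT and KO libraries numbered 1 and 199.7 and 217 CPM in those numbered 2. It fell by 0.71 ± 0.13 (SE) on the log2 scale (edgeR adjusted p = 0.0034), and both number 2 libraries were lowest. Rps7 (chromosome 12, 28630847 to 28635953) fell by 0.74 ± 0.14 (edgeR adjusted p = 0.0045), and Rps18, from 216 and 301 CPM to 150.0 and 162 CPM, fell by 0.71 ± 0.14 (edgeR adjusted p = 0.0044). Rpl12, at the base of the stalk, went from 17 and 20.8 CPM to 11.6 and 10.6 CPM and fell by 0.77 ± 0.18 (edgeR adjusted p = 0.011). Rpl27 fell by 0.76 ± 0.24 and Rpl36a by 0.91 ± 0.31, with edgeR adjusted p of 0.037 and 0.047. These calls were lost with DESeq2, at adjusted p of 0.071 and 0.11, and in the edgeR fit without genotype, at 0.090 and 0.087. Rpl36a, the largest difference, also rests on the fewest reads of these 6. Rpl4 had 829 and 933 CPM in the libraries numbered 1 and 833 and 825 CPM in those numbered 2, a difference of -0.09 ± 0.14 (edgeR adjusted p = 0.68). Rpl29, at 96.7 and 109 CPM against 108 and 103 CPM, was the only one of the 75 with a difference above 0, of 0.04 ± 0.13 (edgeR adjusted p = 0.85).

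Within each genotype the library numbered 2 was the lower one, in 72 of the 75 genes in both WT and KO (40.4% of all genes), with a median of -0.42 in WT and -0.65 in KO. Of the small subunit genes 24 of 30 were called lower (median -0.58), and of the large subunit genes 24 of 45 (median -0.48). Genes with a TOP tract within 5 bases of the annotated start had a median of -0.56 with 18 of 25 called, and those with a promoter entry and no such tract had -0.52 with 20 of 30 called. Across the 75 genes the difference in WT and that in KO had a Pearson r of -0.03, beside 0.74 across all 12723 tested genes, which are not independent replicates and in which each ratio is between 2 single libraries.

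Gene length, depth and other measures moved with the library number too. The libraries numbered 2 were the deeper ones, and mitochondrially encoded genes held 0.251% and 0.234% of counts in the libraries numbered 1 and 0.132% and 0.163% in those numbered 2. The myeloid markers also fell from number 1 to number 2, with 8 of 10 called by edgeR and a median log2 difference of -2.02. Of the erythroid markers 4 of 7 tested were called lower (median -0.91), of the B cell markers 3 of 6 (-0.96) and of the T cell markers 3 of 9 (-0.60). Of the NK cell markers 1 of 10 was lower and 2 were higher (-0.15), near the shares of all genes. Those shares were 12.2% lower and 19.8% higher. Among the 10 myeloid markers, Lyz2 had the largest fall in WT. It was at 92.7 and 258 CPM in the libraries numbered 1 and 3.31 and 18.5 CPM in those numbered 2. The part of depth, of mitochondrial reads and of RNA from other cells in the fall of ribosomal protein genes was not tested.

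Short genes as a whole were lower in the libraries numbered 2. Among genes outside the family, the median log2 difference was -0.59 under 500 bases, -0.43 from 500 to 1000, -0.24 from 1000 to 2000, 0.03 from 2000 to 4000 and 0.51 from 4000 bases up. Ribosomal protein genes had a median length of 703 bases, against 2688 for all tested genes, and 58 of the 75 were under 1000 bases. Their medians were -0.49 under 500 bases (13 genes), -0.55 from 500 to 1000 (45 genes) and -0.48 from 1000 to 2000 (14 genes). Their median thus fell less than that of other genes under 500 bases. It fell more from 500 to 1000 and from 1000 to 2000 bases. The share called lower was 61.5%, 66.7% and 57.1% in these ranges, and 34.5%, 34.1% and 18.9% of the other genes. Under 500 bases the family was thus called more often though its median fell less.

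Within the family, gene length and the difference by number had a Spearman rho of 0.145, beside 0.53 across all tested genes. With coding length in place of gene length, the rho within the family was 0.354. When the fit carried a smooth term for gene length in each library, the median of the 75 moved toward 0, to -0.07. Of the 75, 4 were called by edgeR. Rps15a, Rpl22 and Rpl15 were lower (10.8% of all genes were) and Rpl29 was higher (12.5% were). Of the 6 genes with the largest differences by number, Rps15a was the only one still called. Rps15a is listed at 5136 bases, the longest of the family, while its difference without the term was like that of the short genes, and with the term it was -1.17 on the log2 scale.

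How much of each mRNA can be told from its copies differed widely among the genes. Every stretch of 75 bases that touches the coding sequence was looked up in all other annotated genes of GENCODE vM21. The median gene had 34.9% of its stretches to itself. At the low end, 6 had under 10%: Rps27 (1.48%), Rpl5 (2.48%), Rpl12 (4.72%), Rpl10 (6.59%), Rpl9 (8.94%) and Rpl24 (9.07%). The counted level per kb was higher where this share was higher, with Pearson r = 0.65 and Spearman rho = 0.65 over the 76 genes, which share libraries and are not independent. Rpl39 was an exception, with 82.2% of its stretches to itself and the lowest level of the 76. The 23 tested genes with at least 50% of stretches to themselves had a median level of 601 CPM per kb, and the 52 below that had 73.3 CPM per kb.

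For 30 of the 76 genes another row of the table shared at least 25% of the stretches, and in 17 of these that row held more counts than the ribosomal protein gene in all 4 libraries. The following pairs were chosen after their values were seen. Rps27 had 1402 and 1188 counts in WT and 1387 and 991 in KO, while its retrotransposed copy Rps27rt, which shares 98.5% of the stretches, had 35580 and 30146 in WT and 38979 and 24854 in KO. Rps23 had 192 and 182 counts in WT and 239 and 179 in KO, against 29473 and 29043 in WT and 35416 and 23990 in KO for Gm5148 (69.8% shared). The counts of Gm9385 were 19.1 to 24.1 times those of Rpl24, and the counts of Rpl37rt were 20.8 to 32.6 times those of Rpl37. The level of such a gene is therefore uncertain, since reads that match both rows could be split or lost in counting.

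Most of these copies were lower in the same libraries. Of the 17 rows with more counts, 14 were lower in the libraries numbered 2 by edgeR, which 12.2% of all genes were. Rps27rt was at -0.73 on the log2 scale. All 78 other rows that share at least 10% of the stretches with a ribosomal protein gene held 1.10% and 0.810% of counts in WT and 1.41% and 0.770% in KO, and 42 of the 69 tested were called lower in number 2. Genes with at least 50% and under 50% of stretches to themselves had median differences by number of -0.56 and -0.50, with 17 of 23 and 31 of 52 called.

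**Figure D3:**
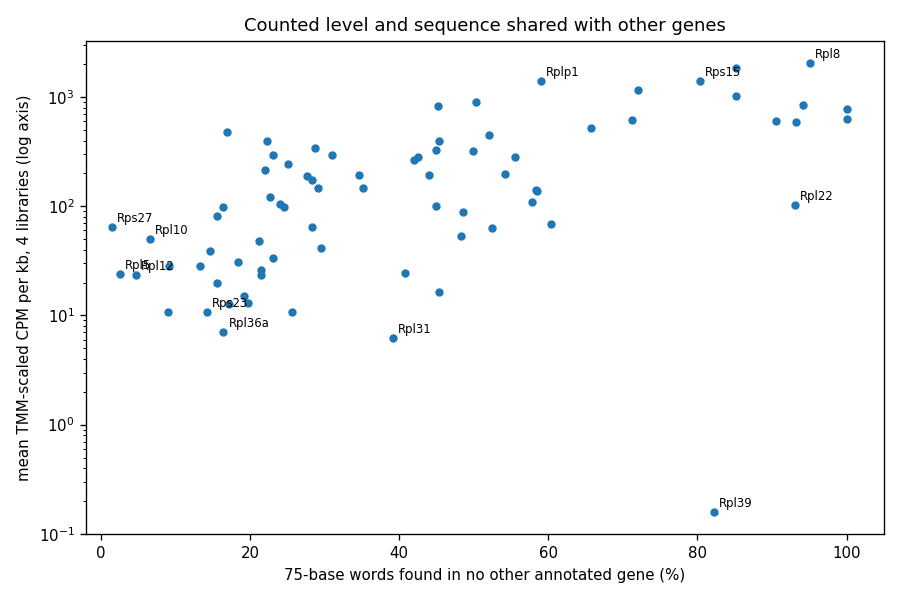
Mean level of the 76 ribosomal protein genes over the 4 libraries, as TMM-scaled CPM per kb on a log axis, against the percent of 75-base stretches of the coding mRNA found in no other annotated gene. Levels rise with the share (Spearman rho 0.65), with Rpl8 at the top. Rpl39, alone at the bottom, goes against this, with 82.2% of its stretches to itself.

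Related genes were read from lists, and edgeR called none of them between KO and WT, nor did DESeq2. Among ribosomal proteins under other symbols, Fau, which is made as a fusion to a ubiquitin-like protein, had a log2 fold change of 0.12 ± 0.31 (SE) for KO against WT, Rps3a1 0.14 ± 0.27 and the scaffold Rack1 0.37 ± 0.39. These 3 were lower in number 2, by edgeR at adjusted p of 0.012, 0.033 and 0.017, with log2 differences of -0.51, -0.43 and -0.66. All 4 tested genes of this list were called lower, against 12.2% of all genes. Rack1 had 1197 and 912 CPM in WT, against 1791 and 936 in KO. Of the 9 listed paralogs 7 were tested, with 4 lower in number 2 (12.2% of all genes). Their medians were 0.12 for KO against WT and -0.47 by number. Rps27l, a p53 target, had 36.4 and 29.0 CPM in WT, against 58.8 and 37.7 in KO, both KO libraries above both WT libraries, at 0.56 ± 0.31 (SE). Rpl22l1, the paralog of Rpl22, had 0.37 ± 0.38, Rpl36al 0.29 ± 0.30, Rpl7l1 0.09 ± 0.21 and Rps4l 0.05 ± 0.28. Rpl39l, better known from testis, had 14 and 31 counts in WT and 4 and 20 counts in KO. Rpl3l and Rpl10l, paralogs of muscle and testis, had at most 2 counts in a library.

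Among 23 other mRNAs known for a TOP tract, the median was 0.08 for KO against WT and -0.32 by number, with 9 lower and 1 higher in number 2. Of all genes, 12.2% were lower and 19.8% higher. With the length term 7 of the 23 were lower and 2 higher (10.8% and 12.5% of all genes in that fit), with a median of -0.20. Eef1a1, which brings aminoacyl-tRNA to the ribosome, had 6779 and 5334 CPM in WT, against 9035 and 5245 in KO. Its partner Eef1b2 had 634 and 487 CPM in WT, against 919 and 495 in KO, and Naca, which binds new chains at the tunnel exit, had 52.5 and 41.0 CPM and 73.1 and 44.5 CPM. Vim, which encodes the filament protein vimentin, did not follow them, with 759 and 915 CPM in WT, against 853 and 1212 in KO.

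Of 58 ribosome biogenesis genes, 16 were higher and 3 lower in number 2 (19.8% and 12.2% of all genes), with a median of 0.03 by number and 0.04 for KO against WT. Tcof1, which supports rRNA synthesis and was picked here for its size of change, had 8.12 and 8.93 CPM in the libraries numbered 1 and 57.4 and 67.6 CPM in those numbered 2. By the smallest unadjusted p for KO against WT came Nhp2 (0.44 ± 0.32 SE), Nop16 (0.44 ± 0.34) and Taf1d (0.45 ± 0.35), and Nop53 was the most highly expressed (0.04 ± 0.20). Of 34 translation initiation factors, 7 were higher, near the 19.8% of all genes, and 10 were lower, against 12.2%. Their median was -0.23 by number and 0.13 for KO against WT, with Eif2a at 0.34 ± 0.31, Eif2s1 at 0.30 ± 0.28, Eif3d at 0.21 ± 0.20 and the abundant Eif4g2 at 0.03 ± 0.21.

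Regulators of ribosomal protein synthesis were longer genes, with a median of 3490.0 bases, and 15 of 35 were higher and 1 lower in number 2 (19.8% and 12.2% of all genes). With the length term 8 were higher and 4 lower (12.5% and 10.8% of all genes in that fit), and the median went from 0.28 to 0.13. Larp1, which binds the TOP tract, was picked here for its size of change, the largest of the 35 in WT and in KO. It had 24.8 and 20.2 CPM in the libraries numbered 1 and 98.3 and 92.9 CPM in those numbered 2. For KO against WT the median of the 35 was -0.06. Zfp692 (-0.70 ± 0.30 SE), Pdcd4, which restrains the initiation helicase (-0.35 ± 0.20), and Grwd1, a chaperone of Rpl3 (0.49 ± 0.23), had the smallest unadjusted p, of 0.075, 0.15 and 0.091 by edgeR, and Rps6ka1 was the most abundant (-0.06 ± 0.24).

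Host genes of small nucleolar RNAs, many of which also carry TOP tracts, had 3 of 14 lower in number 2 (12.2% of all genes). Their median was -0.45, and the highest mean level among the 14 was 24.7 CPM. Gas5 was at 22.0 and 19.8 CPM in WT, against 33.3 and 23.7 in KO (0.45 ± 0.27 SE), Zfas1 at 0.74 ± 0.48 and Snhg5 at -0.42 ± 0.38. The 78 mitochondrial ribosomal protein genes are the closest comparison in function and had a median length of 1054 bases. In number 2, 21 of the 78 were lower (12.2% of all genes) and 0 higher, with a median of -0.32. With the length term 8 were lower and 1 higher (10.8% and 12.5% of all genes in that fit), with a median of 0.02. For KO against WT their median was 0.13, with Mrps25 at 0.34 ± 0.22, Mrps5 at 0.31 ± 0.25, Mrpl14 at 0.30 ± 0.25 and the most highly expressed, Mrpl9, at -0.01 ± 0.30.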

How the data were processed

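RNA from 4 libraries (200 ng of total RNA each, TruSeq preparation, paired-end reads, per the labels' protocols) was deposited as whole-number counts of reads per gene with a gene length. The submitters' processing notes name featureCounts and mm10 as what the authors used; the aligner, its treatment of reads that match several places, the strand setting and versions are not given in the sources used here. Symbols and positions came from a RefSeq table of mm10, which matched 25275 of 26611 gene numbers (95.0%). The single-library files equal the series table, and 0 of its columns lacked a sample.

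The main test was edgeR 4.0.16 quasi-likelihood (R 4.3.3, TMM, robust fit, filterByExpr with a minimum count of 10) on the deposited counts, with genotype alone or, for the library number, genotype and number. Benjamini-Hochberg adjustment ran over all 12723 tested genes (threshold 0.05, two-sided). Each SE is the fold change divided by the root of F. Ratios of single libraries add 0.1 CPM. The length term is a loess curve (span 0.5) used as an offset. DESeq2 1.42.0 and limma 3.58.1 served as alternatives. The code was tested on simulated counts. With n = 2 per group an exact permutation gives no p under 0.333, so p-values rest on the spread shared across genes. The mice are separate animals.

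Named genes were the 4 highest and 2 lowest by level, the 6 at each end of KO against WT, the 6 largest by number, the gene that did not pass the filter and 20 fixed names; in each list, the 3 smallest p and the highest level. Some genes that these rules take are not reported here. The genes, lists and comparisons were chosen with earlier results of these data known. The lists covered ribosomal proteins under other symbols, paralogs, TOP mRNAs, initiation factors, biogenesis, regulators, small nucleolar RNA hosts, mitochondrial ribosomal proteins and markers of 6 cell types.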

Additional observations from a re-analysis of the deposited data

How the results depend on the processing

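In no alternative was a ribosomal protein gene called between KO and WT. Over all genes, the count of calls was 0 in the reported fit, 35 without a filter, 71 with DESeq2, 221 with the replicate block, 179 with the length term and the replicate block, and 0 to 53 when 1 library was left out, where a group of 1 is taken to vary like the other. The block on the replicate number left 0 of the 75 called, with 3 (Rps7, Rpl32 and Rps19) among the 10.8% of genes at an unadjusted p under 0.05. Over all genes the deviations of same-numbered libraries correlated at 0.73, a hint from the data and not the design. The median of the 75 ran from -0.17 to 0.51 with 1 library left out.

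With the length term, 53 of the 75 log2 fold changes were above 0, against 72 without it. Among the 12 genes at the 2 ends of KO against WT, signs turned in fits of all 4 libraries for Rpl28 (-0.018 with limma voom, -0.18 with the length term, -0.0085 with the replicate block, -0.16 with both), Rpl23a (-0.12 with the length term, -0.13 with both) and Rpl9 (-0.10 in both). With 1 library left out, the log2 fold change ranged from -0.15 to 0.85 for Rps7, -0.27 to 0.85 for Rpl27, -0.18 to 0.75 for Rps18, -0.047 to 0.68 for Rpl41, -0.12 to 0.70 for Rpl32, -0.084 to 0.66 for Rps23, -0.45 to 0.11 for Rplp1, -0.63 to 0.32 for Rps29, -0.32 to 0.36 for Rplp2, -0.25 to 0.27 for Rpl28, -0.15 to 0.22 for Rpl23a and -0.23 to 0.31 for Rpl9. The cause was not tested.

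By library number, the length term left 4 of the 75 called and a median of -0.075, and a fit without genotype left 28 of the 75 and 2512 of all genes. With genotype in the fit, leaving out a library leaves no residual degree of freedom, so it was not run. The share of counts was 1.95% and 2.45% in WT and KO library 1 without mitochondrially encoded genes, and, with 33 named pseudogenes added, 2.15% and 1.61% in WT and 2.72% and 1.59% in KO. Rpl36a, at 85 to 146 counts per library, and Rpl39, at 0 to 4, rest on few reads. The reason for their low counts was not tested.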
